A study of Homo sapiens with 3 samples.

Results

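Expression of 8 drug efflux genes of the ATP-binding cassette (ABC) family was followed in TC32, an established Ewing sarcoma cell line, in 3 RNA-seq libraries. The genes were taken by symbol from the deposited tables and are ABCB1, ABCC1, ABCC2, ABCC3, ABCC4, ABCC5, ABCC10 and ABCG2, 8 of 22714 gene names in all. Each symbol stood on 1 row of the tables, under its own name and joined to no other gene. One library came from cells with knockdown of the fusion protein EWS-FLI1, 1 from cells treated with YK-4-279 at 3 µM for 15 hours, and 1 from control cells labelled WT. YK-4-279 is a small molecule described as an EWS-FLI1 inhibitor, and its vehicle was DMSO. The labels do not say how long the knockdown lasted, nor what, if anything, the control cells were given. The title of the series names vincristine sensitivity, and vincristine, a microtubule drug, is carried by several of these pumps. Each group is a single library, which leaves no replicate error to test against, and "higher" and "lower" describe these libraries.

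ABC transporters use ATP to move substrates across membranes, and the members of this group lower the level of many cancer drugs inside cells. ABCB1 encodes P-glycoprotein, the multidrug pump that exports vinca alkaloids, taxanes and anthracyclines. ABCC1 encodes MRP1, which exports vincristine and anthracyclines together with glutathione and also carries glutathione conjugates. ABCC2 (MRP2) and ABCC10 (MRP7) can also carry vinca alkaloids. ABCC3 (MRP3) exports organic anions such as glucuronides, ABCC4 (MRP4) and ABCC5 (MRP5) export cyclic nucleotides and nucleotide analogues, and ABCG2, the breast cancer resistance protein, exports topotecan and mitoxantrone. In bulk RNA, fewer cells that express a gene and less of its RNA per cell cannot be told apart.

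EWS-FLI1 carries the DNA-binding part of the ETS factor FLI1, and ETS factors bind a GGAA core. Promoter windows of 300 bases, from 250 bases before to 50 after a transcript start, were read from RefSeq on GRCh38.p14, and 12 windows matched 6 of the 8 genes: ABCB1, ABCC2, ABCC4, ABCC5, ABCC10 and ABCG2. The 3 shown belong to ABCC5, the most abundant member in each library, ABCC4, a less abundant relative with a similar range of substrates, and ABCB1, the member with the lowest ratio to control in both treated libraries. Where a gene had more than 1 window, the one with most GGAA is shown. All 3 lie on the minus strand and are printed 5′ to 3′ along the gene, with GGAA and its reverse complement TTCC in capitals.
ABCC5, chr3:184017835-184018134: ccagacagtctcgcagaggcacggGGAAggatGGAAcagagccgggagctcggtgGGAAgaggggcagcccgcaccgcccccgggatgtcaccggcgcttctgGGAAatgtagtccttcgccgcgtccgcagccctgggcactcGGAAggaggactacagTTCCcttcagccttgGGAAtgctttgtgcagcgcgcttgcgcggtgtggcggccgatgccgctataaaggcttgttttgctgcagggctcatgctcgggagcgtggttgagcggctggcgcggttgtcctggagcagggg
ABCC4, chr13:95301402-95301701: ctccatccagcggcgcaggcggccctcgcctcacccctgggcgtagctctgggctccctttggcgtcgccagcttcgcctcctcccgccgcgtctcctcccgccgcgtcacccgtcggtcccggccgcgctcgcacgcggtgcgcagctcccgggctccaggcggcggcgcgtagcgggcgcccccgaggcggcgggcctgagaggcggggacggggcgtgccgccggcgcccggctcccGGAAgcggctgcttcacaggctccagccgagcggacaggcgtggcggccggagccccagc
ABCB1, chr7:87600835-87601134: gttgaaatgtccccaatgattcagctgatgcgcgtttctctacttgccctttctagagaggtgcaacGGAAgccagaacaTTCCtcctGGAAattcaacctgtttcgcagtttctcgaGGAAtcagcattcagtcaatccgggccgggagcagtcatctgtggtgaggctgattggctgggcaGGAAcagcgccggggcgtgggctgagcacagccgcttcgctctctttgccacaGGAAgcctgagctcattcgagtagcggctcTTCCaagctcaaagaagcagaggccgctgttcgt
GGAA, on either strand, occurred 7 times in the ABCC5 window, once in that of ABCC4 and 7 times in that of ABCB1. At least 1 copy was present in 95.5% of all 35116 promoter windows, with a median count of 3, and at least 7 copies in 8.29%. The tandem GGAAGGAA, on either strand and overlapping the single core, was in 1 of the 12 windows of these genes, one of ABCG2, against 3.67% of all windows. TGACNNNGC, the core of the antioxidant response element bound by NRF2 (NFE2L2), was in 3 of the 12 on either strand, in windows of ABCC4, ABCC10 and ABCG2, against 13.3% of all windows. These matches describe letters in the windows only.

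Values are FPKM as deposited, and scaled FPKM, in which each library was multiplied by 1.44 (knockdown), 2.12 (YK-4-279) or 0.325 (control) so that the median compared gene had the same level. The log2 ratio is the difference of log2(scaled FPKM + 1), which understates changes of low genes, and the threshold for a call was a ratio of at least 1 in size. It was computed for all names, and calls were made on the 9939 with a mean deposited FPKM of at least 1. Counting errors come from fragments estimated from the lowest deposited values, about 26580899 in the knockdown library, 34153763 with YK-4-279 and 43827050 in the control, summed over the 8430 compared genes with a known length. These errors are rough and leave out any variation from culture to culture. FLI1, part of whose sequence is in the fusion transcript, had 2.13 scaled FPKM in the knockdown library, 17.6 with YK-4-279 and 21.4 in the control. Of 5 markers set for the line, NKX2-2, NR0B1, FLI1 and CCND1 were above 0 in each library, while CD99 was listed at 0 in all of them.

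Of the 8 genes, ABCB1, ABCC1, ABCC4 and ABCC5 passed the level filter. The other 4, ABCC2, ABCC3, ABCC10 and ABCG2, did not, and at their levels a log2 ratio of 1 with the added value of 1 was out of reach. In the control the order from high to low was ABCC5, ABCC1, ABCC4, ABCB1, ABCG2, ABCC3, ABCC10 and ABCC2. The first 5 steps of that order were larger than counting error, and ABCC3, ABCC10 and ABCC2, at 0.137, 0.134 and 0.125 scaled FPKM, had overlapping 95% counting intervals. With YK-4-279 the order was the same, and the intervals overlapped between ABCC1 and ABCC4, between ABCB1 and ABCG2, between ABCC3 and ABCC10, and between ABCC10 and ABCC2. In the knockdown library ABCC10 stood before ABCC3 and ABCG2, and each of those steps lay within counting error. The highest member exceeded the lowest by 121-fold in the knockdown library, 57.9-fold with YK-4-279 and 165-fold in the control.

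**Figure D1:**
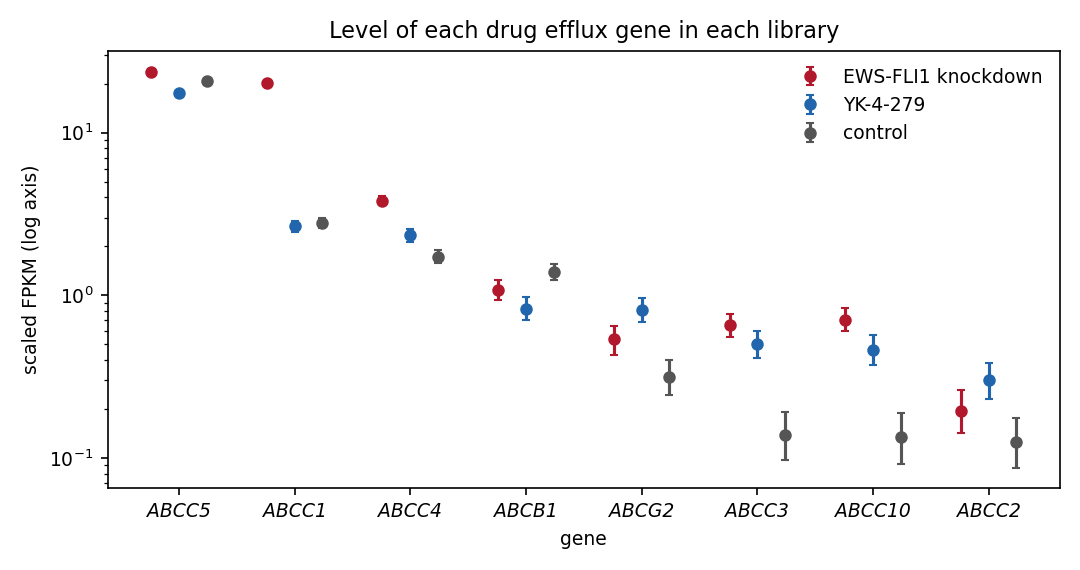
Scaled FPKM (log axis) of each efflux gene in the knockdown, YK-4-279 and control libraries, with bars for the 95% counting interval from estimated fragments. ABCC1 stands at 20.3 in the knockdown library, near ABCC5, and at 2.66 with YK-4-279 and 2.78 in the control.

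ABCC1 was the 1 member called in a comparison with control. It had 14.1 FPKM in the knockdown library, 1.26 with YK-4-279 and 8.56 in the control. On the scaled values this was 20.3, 2.66 and 2.78 FPKM, so the knockdown library was high and the other two lay close together on this scale. Its log2 ratio to control was 2.49 in the knockdown library (counting SE 0.041), a 5.63-fold difference with 1 added to both values, or 7.29-fold with nothing added. With YK-4-279 the ratio to control was -0.047 (counting SE 0.055), within counting error on this scale, but it ran from -0.43 with the scale set over all named genes to 0.12 with centred ratios. ABCC1 was also higher in the knockdown library as deposited, before scaling, with a log2 ratio of 0.66, whereas the median of all compared genes there was -1.75. Its place among all gene names needs no scaling between libraries: it lay above 91.1% of names in the knockdown library, 71.4% with YK-4-279 and 72.8% in the control. Among compared genes, 17.3% were higher by the same rule in the knockdown library and 2.41% with YK-4-279, and 1 of the 4 compared members called in the knockdown library is not read as more than that background. Without the level filter ABCC1 was the 1 of 8 called, against 9.18% of 22714 names higher and 7.44% lower. The members below the filter could not be called at their levels. ABCC1 lies on chromosome 16 (GRCh38, 15949577 to 16143074), and the 1 gene that overlaps it in GENCODE release 29 is a ribosomal protein pseudogene on the other strand.

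Genes set as markers of other cell types were also read. Of 5 fibroblast genes, FAP, PDGFRB, LUM and COL1A1 were higher in the knockdown library, with log2 ratios of 1.86, 1.44, 1.34 and 1.56, and DCN was lower at -1.86. Their summed level was 57.9 scaled FPKM in the knockdown library, 24.4 with YK-4-279 and 26.5 in the control, and none was at 0 in any library. Their part in the ABCC1 value was not tested, and 17.3% of all compared genes were higher in the knockdown library and 17.0% lower. Hepatocyte, enterocyte and kidney tubule markers, chosen because those cells are rich in efflux pumps, summed to at most 0.560 scaled FPKM in any library, and endothelial and leukocyte markers to at most 1.09.

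The share of each gene in the summed FPKM of the group is also free of the scaling. ABCC1 made up 40.0% of the sum in the knockdown library, 10.5% with YK-4-279 and 10.2% in the control. ABCC5 made up 46.2%, 68.8% and 75.8% in the same order of libraries. The FPKM of ABCC1 per FPKM of ABCC5 was thus 0.865 in the knockdown library, 0.153 with YK-4-279 and 0.135 in the control. ABCC4 held 7.52%, 9.20% and 6.33%, and ABCB1 held 2.13%, 3.27% and 5.08%, its largest share being that in the control. The sum over the 8 genes was 50.7 scaled FPKM in the knockdown library, 25.3 with YK-4-279 and 27.2 in the control, and without ABCC1 it was 30.4, 22.7 and 24.5.

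**Figure D2:**
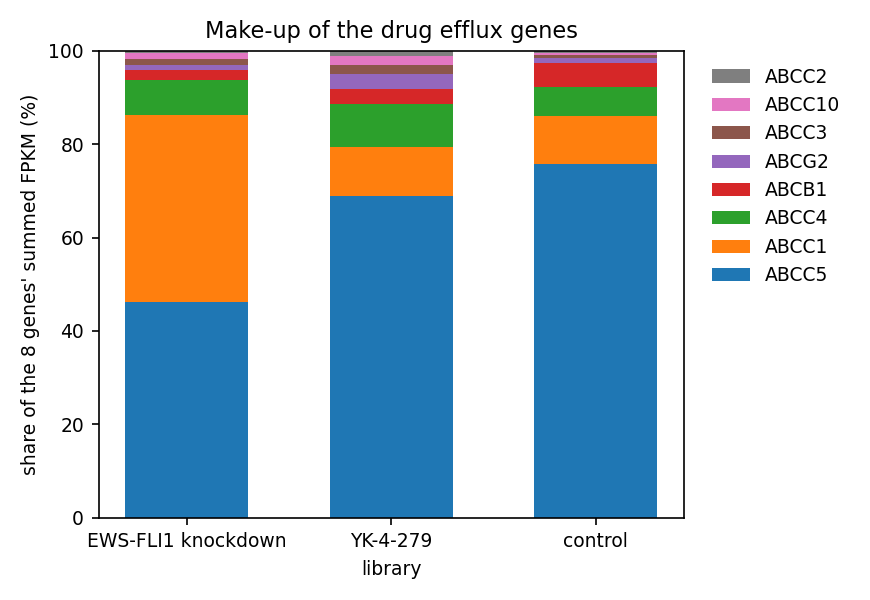
Share (%) of each efflux gene in the summed FPKM of the 8 genes, 1 bar per library. The ABCC1 segment covers 40.0% of the knockdown bar, 10.5% of the YK-4-279 bar and 10.2% of the control bar.

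On the scaled values the pumps known to carry vinca alkaloids did not share a direction. With deposited ratios centred on their median, all of these pumps were above 0 in both comparisons with control. ABCB1, the best known of them, had 0.750 FPKM in the knockdown library, 0.391 with YK-4-279 and 4.26 in the control, or 1.08, 0.828 and 1.38 on the scaled values. The control was thus the highest of the 3 libraries, with log2 ratios of -0.20 (counting SE 0.071) in the knockdown library and -0.38 (counting SE 0.072) with YK-4-279, neither of which reached the threshold. Both ratios lost their sign when deposited ratios were centred on their median, where they were 0.17 and 0.28, and the first was 0.13 at equal summed FPKM. RUNDC3B overlaps ABCB1 on the other strand and had 0.248, 0.0831 and 1.01 FPKM in the same libraries. Use of strand in the counting is not given in the sources used here, so reads from stretches shared by that pair may not be told apart. The overlap was read from whole gene spans, and overlap of exons was not examined.

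ABCC2 and ABCC10 were scarce. ABCC2 had 0.194 scaled FPKM in the knockdown library, 0.301 with YK-4-279 and 0.125 in the control, from about 45, 65 and 34 estimated fragments. Its ratio without an added value was 0.63 in the knockdown library, with a 95% counting interval of -0.013 to 1.27, and 1.26 (0.67 to 1.86) with YK-4-279. ABCC10 had 0.708, 0.462 and 0.134 scaled FPKM from about 144, 88 and 32 fragments, and was lowest in the control. Its ratios without an added value were 2.40 (1.85 to 2.95) in the knockdown library and 1.78 (1.20 to 2.37) with YK-4-279. DLK2, which overlaps ABCC10 on the other strand, was listed at 0 in the knockdown library and had 0.133 FPKM with YK-4-279 and 0.226 in the control. The 4 vinca carriers summed to 22.2 scaled FPKM in the knockdown library, 4.25 with YK-4-279 and 4.42 in the control. Leaving out ABCC1 made that 1.98, 1.59 and 1.64.

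The cyclic nucleotide exporters ABCC5 and ABCC4 were both below the threshold. ABCC5 had 16.3 FPKM in the knockdown library, 8.23 with YK-4-279 and 63.6 in the control, which were 23.4, 17.4 and 20.6 on the scaled values. The 3 scaled levels lay within a narrow span, with log2 ratios to control of 0.18 (counting SE 0.026) in the knockdown library and -0.23 (counting SE 0.029) with YK-4-279. The first of these changed sign, to -0.46, when the scale was set over all named genes, and to -0.15 when deposited ratios were centred. ABCC5-AS1, annotated on the other strand within ABCC5, was listed at 0 in all 3 libraries.

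ABCC4 had 2.65 FPKM in the knockdown library, 1.10 with YK-4-279 and 5.31 in the control, or 3.81, 2.33 and 1.72 on the scaled values. It was thus highest in the knockdown library and lowest in the control once scaled, whereas the control was highest as deposited. Its log2 ratio of 0.82 (counting SE 0.057) in the knockdown library did not reach 1, but did with a pseudocount of 0.1 (1.10), with none (1.14) or with libraries scaled to the same summed FPKM (1.26). With YK-4-279 the ratio was 0.29 (counting SE 0.061), and it was -0.058 with the scale set over all named genes.

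The organic anion exporter ABCC3 had 0.453 FPKM in the knockdown library, 0.236 with YK-4-279 and 0.423 in the control, which were 0.652, 0.499 and 0.137 on the scaled values. ABCG2 had 0.371, 0.385 and 0.967 FPKM, or 0.534, 0.814 and 0.314 scaled. Both genes were lowest in the control after scaling, and ABCG2 was highest with YK-4-279 while ABCC3 was highest in the knockdown library. Without an added value, the ratio of ABCC3 was 2.25 (95% counting interval 1.73 to 2.77) in the knockdown library and 1.86 (1.32 to 2.41) with YK-4-279. The ratio of ABCG2 was 0.77 (0.31 to 1.22) in the knockdown library and 1.38 (0.95 to 1.8) with YK-4-279.

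The higher scaled values of the 4 scarce genes were shared by other genes of their level. Over the 4997 names with a mean deposited FPKM from 0.1 to 1 and above 0 in each library, the median ratio without an added value was 1.79 in the knockdown library, with an interquartile range of 0.86 to 2.73, and 1.44 with YK-4-279 (0.48 to 2.57). ABCC3 and ABCC10 lay at percentiles 63.8 and 67.8 of these names in the knockdown library, and ABCG2 and ABCC2 at 23.1 and 20.2. With YK-4-279 all 4 were between percentiles 45.6 and 61.1. ABCC1 lay at percentile 97.1 of the 4235 names between 5 and 50 FPKM in the knockdown library, whose median was -0.28. With YK-4-279 it was at percentile 49.96. Its mean of 7.96 FPKM, which set that range, holds its 14.1 FPKM in the knockdown library. A gene placed by its knockdown value tends to rank high there, and percentile 97.1 is not read as support for a higher level. Between 1 and 5 FPKM the knockdown median was 0.82, with an interquartile range of 0.032 to 1.62. ABCB1 lay at percentile 5.09 of 4025 names between 1 and 5 FPKM with YK-4-279, and at 16.2 in the knockdown library. At 0.750 FPKM in the knockdown library and 0.391 with YK-4-279, it entered that range only through its 4.26 FPKM in the control. A gene placed so tends to rank low in a ratio to that control, and its percentiles are not read as support for a lower level. ABCC4 lay at percentiles 61.2 in the knockdown library and 64.0 with YK-4-279, and ABCC5 at 65.7 and 33.3.

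**Figure D3:**
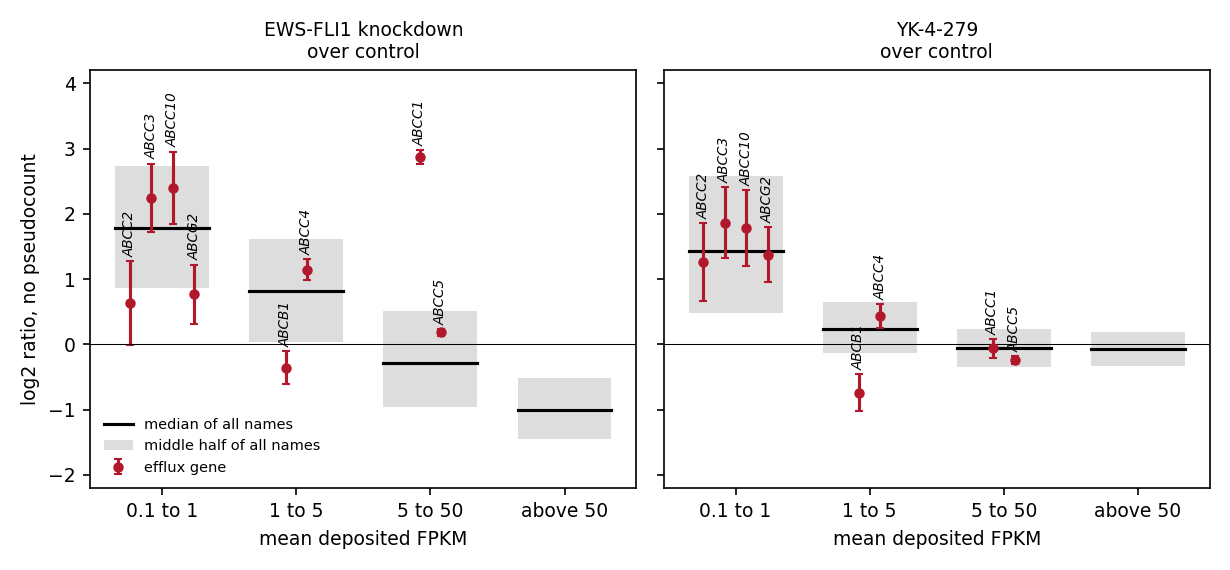
Log2 ratios without a pseudocount against mean deposited FPKM in 4 ranges, for the knockdown library (left) and YK-4-279 (right) over control; grey boxes give the interquartile range and black lines the median of all names in a range, and red points the efflux genes with 95% counting intervals. The 4 scarce genes lie near or inside the box of their range. ABCC1 lies above its box in the knockdown panel at 2.87, in a range set by a mean that holds its knockdown value. ABCB1 lies below its box in both panels, in a range that it enters only through its control value.

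Over all 8 genes, the median log2 ratio to control was 0.38 in the knockdown library and 0.25 with YK-4-279, against 0.0064 and 0.029 over all compared genes. The compared genes leave out low ones, which lay higher after scaling, and over the 4 compared members alone the medians were 0.50 and -0.14. The medians over the 8 genes thus hold the shift of scarce genes and are not read as a change of the group. Those over the 4 compared members are not read so either. ABCB1 is among these 4 and passed the filter only through its 4.26 FPKM in the control, which favours a low ratio to control. Both comparisons used the same control library. With YK-4-279 no member was called, against 2.41% of compared genes higher and 1.69% lower, and in the knockdown library none was lower, against 17.0%. Without the level filter these shares were 1.60% and 0.740% of names with YK-4-279. Again no member was called there, but those below the filter could not be called at their levels.

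**Figure D4:**
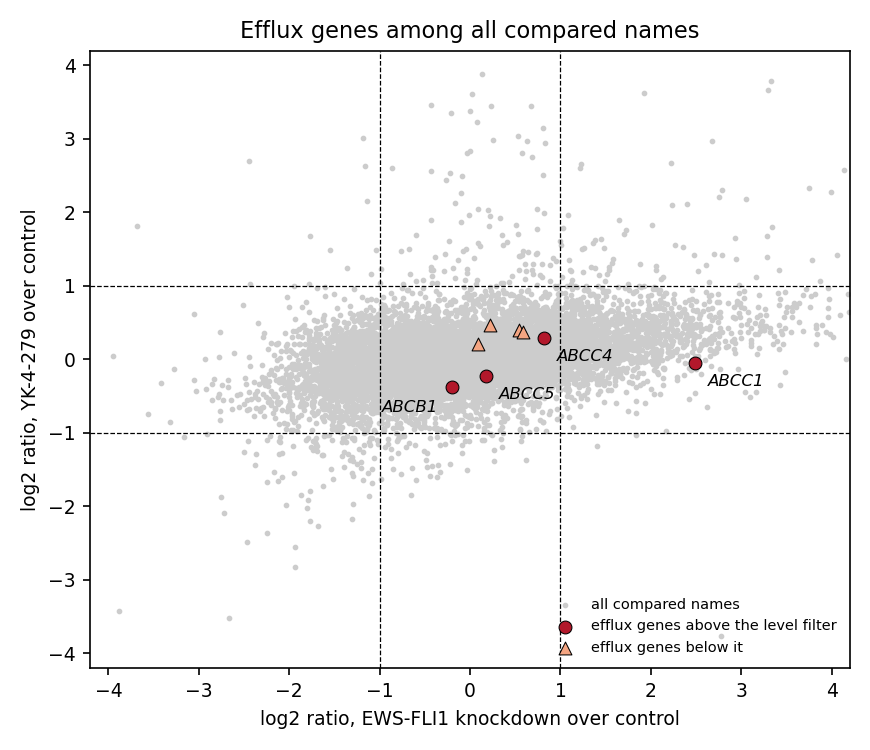
Log2 ratio to control in the knockdown library (x axis) and with YK-4-279 (y axis) for all compared names (grey) and the efflux genes above (circles) and below (triangles) the level filter; dashed lines mark the threshold of 1, and 95 names fall outside the axes. ABCC1 lies at 2.49 and -0.047, past the threshold on the x axis, and the other 7 genes lie inside the dashed square. For the triangles a ratio of 1 was out of reach at their levels.

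Set directly against each other, the treated libraries share no control. ABCC1 was the 1 member called, lower with YK-4-279 than in the knockdown library at a log2 ratio of -2.54 (counting SE 0.045), where 14.5% of compared genes were lower and 15.3% higher (7.16% and 6.94% of all names without the level filter). ABCC4 and ABCC5 were at -0.53 and -0.41, and ABCB1, ABCC3 and ABCC10 between -0.22 and -0.14. ABCG2 and ABCC2 were at 0.24 and 0.12. The median over the 8 genes was -0.21, and -0.47 over the 4 compared members, against -0.015 over all compared genes.

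The rest of the ABC family was read from a list of 40 genes, which stood on 38 loci or sums of loci because ABCA5, ABCA6 and ABCA10 share 1 merged locus. Of these, 13 were compared. In the knockdown library 2 were higher, 3 were lower and 8 were neither, with a median of -0.36. Beside 17.3% of all compared genes higher and 17.0% lower, these counts are not read as a result about the list. ABCB6, linked to porphyrin transport, had 5.41 scaled FPKM in the knockdown library, 2.22 with YK-4-279 and 1.63 in the control (log2 ratios 1.29 and 0.29). ABCC9, the regulatory SUR2 subunit of potassium channels, had 3.15, 3.96 and 0.757 scaled FPKM in the same order, and was called higher in both treated libraries (1.24 and 1.496). The 3 lower genes encode soluble ABC proteins that work in translation and are not transporters: ABCF3 was at -1.68, the ribosome recycling factor ABCE1 at -1.50 and ABCF2 at -1.13.

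With YK-4-279, 1 of the 13 was higher, ABCC9, and 1 lower, ABCF3 at -2.26, with a median of -0.15. Of all compared genes, 2.41% were higher there and 1.69% lower. Between the treated libraries, ABCE1 was higher with YK-4-279 than after knockdown (1.39). ABCD4, a lysosomal protein of vitamin B12 export, and ABCA8 were lower (-1.64 and -1.25), and the median of the 13 was 0.20. In that comparison 15.3% of compared genes were higher and 14.5% lower. Names with a mean deposited FPKM above 50, as ABCE1 has, had a median there of 0.94 without an added value. ABCC1, at 2.49, had a larger ratio in the knockdown library than any of these 13.

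**Figure D5:**
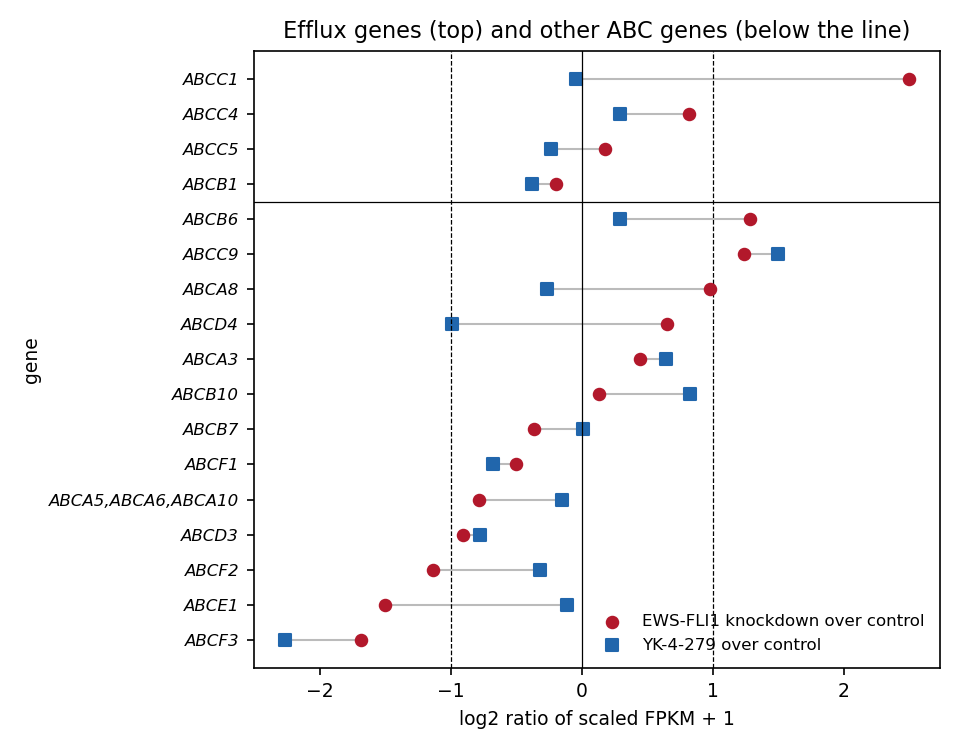
Log2 ratios to control of the 4 compared efflux genes (above the solid line) and the 13 other compared ABC entries (below it), with red circles for the knockdown library and blue squares for YK-4-279; dashed lines mark the threshold of 1. ABCC1, at 2.49 and -0.047, has the widest gap between its 2 points, and ABCF3 lies past -1 in both comparisons.

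Genes that supply or use glutathione, which MRP1 needs for part of its substrates, gave mixed values. Of 25 listed, 19 were compared, and in the knockdown library 5 were higher, 2 lower and 12 neither, with a median of -0.035. Of all compared genes, 17.3% were higher there and 17.0% lower. The counts were 1 higher and 6 lower with the scale over all named genes, and 2 and 2 at a mean FPKM of at least 5. They are not read as a result about the list. The 5 higher genes included SLC3A2 and SLC7A11, the subunits of the cystine importer, at 1.58 and 1.15. The others were the γ-glutamyltransferase relative GGT7 at 1.43, GCLC, the catalytic subunit of the first enzyme of glutathione synthesis, at 1.14, and glutathione reductase GSR at 1.13. The lower genes were the glutathione transferases GSTA4 at -1.65 and GSTM1 at -1.26, and GSTM genes are close relatives whose reads may have been divided among them. With YK-4-279, SLC3A2 and the microsomal transferase MGST3 were higher, at 1.36 and 1.17, glutathione synthetase GSS was lower at -1.07, and the median was 0.14. Of all compared genes, 2.41% were higher there and 1.69% lower. With the scale over all named genes, 0 of the list were higher and 2 lower with YK-4-279.

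Between the treated libraries, 4 glutathione genes were higher with YK-4-279 than after knockdown: GSTA4 at 1.59, GSTO1 at 1.39, GSTM4 at 1.26 and MGST3 at 1.20. The mean deposited FPKM of each was above 50, where the median of all names was 0.94 without an added value. GGT7 and GSR were lower with YK-4-279, at -1.29 and -1.04, and the median of the list was -0.17. Of all compared genes, 15.3% were higher in that comparison and 14.5% lower.

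Among the 32 regulators of efflux genes reported here, 16 were compared, and in the knockdown library 4 were higher and 0 lower, with a median of 0.67, beside 17.3% of all compared genes higher and 17.0% lower. The count of higher regulators was 10 at equal summed FPKM and 0 at a mean FPKM of at least 5, so it is not read as a result about the list. The 4 were the immediate early factor EGR1 at 2.66, FOXO1 at 2.38, the Wnt effector TCF7L2 at 2.17 and the hypoxia factor HIF1A at 1.42. All 4 have a mean deposited FPKM from 1 to 5. Without an added value, the median of all names at that level was 0.82 in the knockdown library and -0.58 between the treated libraries. NFE2L2, the factor NRF2 that drives several MRP genes, had 30.4 scaled FPKM in the knockdown library, 15.4 with YK-4-279 and 19.99 in the control, with ratios of 0.58 and -0.36, neither past the threshold. With YK-4-279 none of the 16 was called, beside 2.41% of all compared genes higher and 1.69% lower, and the median was 0.13. Between the treated libraries 0 were higher with YK-4-279 and 5 were lower, beside 15.3% of all compared genes higher and 14.5% lower. The count of lower regulators was 10 at equal summed FPKM and 0 at a mean FPKM of at least 5. That count is not read as a result about the list either. EGR1, FOXO1, TCF7L2 and HIF1A were lowest at -1.79, -1.77, -1.58 and -1.30, and the median of the 16 was -0.81.

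Other drug carriers were mostly near control. Of 27 listed, 9 were compared, and the equilibrative nucleoside carrier SLC29A1, which takes up nucleoside drugs, was the 1 called in the knockdown library, lower at -2.08, with 5.28 scaled FPKM there, 15.4 with YK-4-279 and 25.5 in the control. The share of all compared genes called lower after knockdown was 17.0%. None of the 9 was called with YK-4-279, beside 2.41% of compared genes higher and 1.69% lower. The median of the 9 was -0.12 in both comparisons with control. SLC29A1 was higher with YK-4-279 than after knockdown (1.38). Of 10 surface scaffolds and kinases of efflux pumps, 6 were compared. EZR and RDX, which encode the membrane linkers ezrin and radixin, and the caveolin CAV1 were lower in the knockdown library, at -1.81, -1.31 and -1.55. CAV1 was higher with YK-4-279 at 1.48, where 2.41% of all compared genes were higher. The medians of the 6 were -0.68 in the knockdown library and 0.043 with YK-4-279. Between the treated libraries CAV1 and EZR were higher with YK-4-279 than after knockdown, at 3.03 and 1.72, and the median of the 6 was 0.50. Names above 50 FPKM had a median there of 0.94 without an added value, and 15.3% of compared genes were higher.

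The genes whose pair of ratios to control lay nearest to that of ABCC1 were CNKSR3, EDIL3 and RND3, at distances of 0.048, 0.081 and 0.091 on the log2 scale. RND3 had 28.9 scaled FPKM in the knockdown library, 4.50 with YK-4-279 and 4.34 in the control. EDIL3, a secreted integrin-binding protein, had 15.2, 1.63 and 1.88 scaled FPKM. The likeness rests on 3 libraries, and 18 of 9922 names lay within 0.2 of ABCC1.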

How the data were processed

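RNA was profiled in 1 knockdown, 1 YK-4-279 and 1 control library. The FPKM values, fragments divided by locus length and library size, are those the authors deposited for 88434 loci, of which 63683 have no gene name. CASAVA 1.8.2, TopHat, Cufflinks 2.2.1 and the build GRCh37 (hg19) are named in the submitters' processing notes, per the labels. Annotation, scaling between libraries and use of strand: not given in the sources used here. Per the labels' protocols, cDNA was made with a SMARTer kit, sheared and amplified by PCR. The knockdown values are headed dEF while the title reads shEF, and the group follows the labels.

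Rows of 1 name were summed (22714 names). For each library, ratios to the geometric mean were taken for compared names (9939 in all) that were nowhere at 0, and their median set the scale. The written design named all named genes for this median. The compared names were used because they put the median compared gene near 0, and the wider set is an alternative. This assumes that the median gene did not differ. One fragment over 1 kb was worth 0.0174 FPKM in the knockdown library, 0.0126 with YK-4-279 and 0.0657 in the control, from the lowest values of single-transcript olfactory receptor genes, and lengths are the longest coding transcript in GENCODE release 29. For the control this worth corresponds to fewer mapped fragments than the 43827050 estimated over compared genes, and an unrecorded rescaling of the control is possible. Counting intervals are 95% exact Poisson for levels and normal approximations for ratios, and PCR copies are not independent molecules. The steps were checked on simulated data whose changed genes were well expressed and whose ratios did not shift with level, unlike these libraries. That check cannot show how the scaling behaves under such a shift. Python 3.11.15, numpy 2.4.6, pandas 2.3.3 and scipy 1.17.1 were used. The genes and lists were chosen with earlier results of these data known. One gene of the regulator list is not reported here and is left out of its counts and medians. Named are all 8 genes, list genes past the threshold (at most 4 each way per comparison), and the 3 names nearest to a called member. Alternatives varied the pseudocount, filter, scaling and rows per symbol.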

Additional observations from a re-analysis of the deposited data

How the results depend on the processing

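No paired analysis was possible because each group holds 1 library, and for the same reason no replicate could be left out. The call of ABCC1 in the knockdown library held under all alternatives but the unscaled one, with log2 ratios of 1.93 to 3.02 against 0.66 unscaled, and its ratio between the treated libraries was -3.07 to -2.37. None of the values called in the report for the 8 genes changed direction. Unscaled FPKM gave 0 efflux genes higher and 2 lower after knockdown, and 4 lower with YK-4-279, with medians over the 8 genes of -0.40 and -1.05, and -0.31 between the treated libraries. Among the other ABC genes it gave 0 higher in each comparison, with 9 lower after knockdown, 11 lower with YK-4-279 and 4 lower between the treated libraries. A pseudocount of 0.1 gave 2 efflux genes higher in the knockdown library, ABCC4 being added, medians of 0.86, 0.62 and -0.39, and 3 other ABC genes higher and 2 lower with YK-4-279. No pseudocount gave 2 higher and medians of 0.96, 0.85 and -0.41. Centring deposited ratios gave medians of 1.35, 1.15 and 0.059, with 2 other ABC genes higher and 3 lower with YK-4-279 and 1 lower between the treated libraries. Equal summed FPKM gave 2 efflux genes higher in the knockdown library and medians of 0.74 there and -0.48 between the treated libraries, with 4 other ABC genes higher and 1 lower after knockdown. Between the treated libraries that scaling gave 0 higher and 4 lower. It moved the median compared gene to 0.47 in the knockdown library. The scale over all named genes was the one worded in the written design, but it was run only as an added alternative. It moved the median compared gene to -0.50 and -0.38, and gave medians over the 8 genes of 0.19 and 0.036. With it 0 other ABC genes were higher and 6 lower after knockdown, and 4 were lower with YK-4-279. The absence of a pseudocount was chosen after seeing the data. Without a filter 5 other ABC genes were higher in the knockdown library, and with a mean FPKM of at least 5 there were 0 higher in either comparison with control and 1 lower between the treated libraries. The causes of these shifts were not tested. Depth limits ABCC2, ABCC3 and ABCC10, which rest on about 32 to 37 fragments in the control.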
